A study of Mus musculus with 8 samples.

Results

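Cholesterol synthesis and its control by the sterol regulatory element binding proteins (SREBPs) were examined through 30 genes. They were chosen by name: 8 enzymes from acetyl-CoA to the isoprenoid diphosphates, 10 enzymes from squalene to cholesterol, 5 genes of the SREBP machinery and 7 genes of sterol uptake, efflux and storage. Each of the 30 symbols matched 1 of the 38918 gene rows, and 27 were measured, with at least 1 CPM (exon reads scaled to library size) in either library. The remaining 3, Abca1, Nr1h3 and Soat1, were near the limit of detection.

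The cells were BMiFLT3 (15-3), a pro-B cell line derived from mouse B cell precursor acute lymphoblastic leukaemia (BCP-ALL). They were infected with a retrovirus for overexpression of Klf2, a Krüppel-like zinc finger transcription factor, or of BFP (blue fluorescent protein), the control. The stated aim was to find genes that Klf2 regulates. The labels name the BFP tag in the descriptions of both groups, give no time after infection, and do not say whether the line is a clone.

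Cells make cholesterol from acetyl-CoA through mevalonate, farnesyl diphosphate and squalene. When sterols are scarce in the endoplasmic reticulum, SCAP escorts SREBPs to the Golgi, where proteolysis releases a fragment that activates genes of cholesterol synthesis and uptake. When sterols are plentiful, INSIG proteins hold SCAP back, and oxysterols activate the liver X receptors (LXRs), which turn on genes of cholesterol efflux. Dividing lymphoid cells draw on this pathway for membranes and for the isoprenoid groups attached to small GTPases.

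Each group had 4 deposited samples whose titles differ in a lane name. Their counts agreed within about sampling noise (chi-square per degree of freedom 1.27 in Klf2 and 1.29 in BFP on all exon reads, and 1.03 in each on uniquely placed reads), so they were summed and counted as 1 library per group. No test of the conditions was therefore possible. Each ratio is given with an exact (Clopper-Pearson) 95% interval that covers counting error only and not differences between cultures. Whether lanes lie apart between the libraries likewise reflects counting spread only. Lanes lay apart at a ratio as near 1 as 1.07 (Sqle), and the share of all genes with lanes apart is not given. Exon reads summed to 30835450 in Klf2 and 30133978 in BFP. The Klf2 gene had 113 CPM in Klf2 cells and 10.1 CPM in BFP cells, a ratio of 11.1 (9.93 to 12.6). Of 12 pro-B cell markers, 8 were measured, while Rag1, Rag2 and Dntt were near 0. The markers found summed to 3411 CPM in Klf2, against 3075 CPM in BFP, with intervals above 1 for Vpreb1 (1.49) and Igll1 (1.43) and below 1 for the other 6, and a median ratio of 0.917. Summed markers of myeloid cells were 12.9 CPM in Klf2 and 16.5 CPM in BFP, and of T cells 7.43 CPM in Klf2 and 4.37 CPM in BFP. Those of erythroid cells were 1.07 CPM in Klf2 and 1.42 CPM in BFP, and of stroma 0.0335 CPM in Klf2 and 0.161 CPM in BFP. Ly6g, S100a8, S100a9 and Marco had 0 reads in both libraries, where finding none still permits levels of 0.0973 CPM in Klf2 and 0.0996 CPM in BFP (3 reads). In RNA from a whole culture, fewer cells of a type and less RNA per cell cannot be told apart.

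The promoter sequences below belong to the measured genes at the ends of the range for which RefSeq windows were at hand: Idi1 and Acat2 with the largest log2 difference upward, and Mylip and Insig1 downward. Each window runs 5′ to 3′ on the gene's strand, from 250 bases before to 50 bases after the RefSeq start site (build GRCm38.p6). Capitals mark matches, on either strand, to CCAAT (the NF-Y box, ATTGG on the other strand) or to CCNCNCCC (a box bound by KLF and SP factors). Positions count the bases from a match's first base to the start site. The Idi1 window, chr13:8885356-8885655 on the plus strand, holds CCAAT matches 45 and 14 bases before the start. The Acat2 window, chr17:12960676-12960975 on the minus strand, holds 4 KLF/SP matches in 2 overlapping pairs, 184 and 179 bases and 33 and 30 bases before the start. The Mylip window, chr13:45389492-45389791 on the plus strand, holds CCAAT matches at 190, 108 and 67 bases and KLF/SP matches at 186 and 44 bases, the most distant of each overlapping. The Insig1 window, chr5:28071162-28071461 on the plus strand, holds a CCAAT match at 216 bases and KLF/SP matches at 167, 110 and 30 bases.
Idi1: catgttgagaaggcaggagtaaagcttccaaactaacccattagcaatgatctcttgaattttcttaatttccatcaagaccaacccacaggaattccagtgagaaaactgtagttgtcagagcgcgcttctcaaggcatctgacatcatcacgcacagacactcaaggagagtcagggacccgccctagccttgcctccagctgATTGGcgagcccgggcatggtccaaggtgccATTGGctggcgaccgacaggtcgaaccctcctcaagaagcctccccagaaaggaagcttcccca
Acat2: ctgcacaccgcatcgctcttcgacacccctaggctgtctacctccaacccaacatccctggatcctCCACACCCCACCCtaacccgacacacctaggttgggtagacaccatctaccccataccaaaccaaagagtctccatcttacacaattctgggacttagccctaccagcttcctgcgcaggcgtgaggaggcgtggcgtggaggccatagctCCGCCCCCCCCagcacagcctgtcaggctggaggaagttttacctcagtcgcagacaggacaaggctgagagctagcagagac
Mylip: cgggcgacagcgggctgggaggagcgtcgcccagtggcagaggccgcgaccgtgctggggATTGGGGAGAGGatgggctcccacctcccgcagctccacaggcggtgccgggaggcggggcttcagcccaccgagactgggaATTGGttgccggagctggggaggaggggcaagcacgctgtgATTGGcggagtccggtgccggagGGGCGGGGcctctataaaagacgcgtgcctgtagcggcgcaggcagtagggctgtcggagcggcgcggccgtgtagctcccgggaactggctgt
Insig1: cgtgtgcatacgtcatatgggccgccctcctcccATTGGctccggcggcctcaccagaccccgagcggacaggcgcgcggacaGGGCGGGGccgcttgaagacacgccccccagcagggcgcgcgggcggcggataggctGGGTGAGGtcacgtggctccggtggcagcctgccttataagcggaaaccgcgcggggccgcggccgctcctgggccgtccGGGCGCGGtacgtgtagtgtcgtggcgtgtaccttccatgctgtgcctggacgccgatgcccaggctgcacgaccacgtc

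Promoter windows were at hand for 25 of the 30 genes (34 windows), and not for Fdps, Fdft1, Sqle, Stard4 or Abcg1. CCAAT was found in 20 of the 25 genes (80%), against 41.1% of 27025 genes in the RefSeq table, and in 61.8% of the 34 windows, against 37.4% of all 32851 windows. CCNCNCCC was found in 20 of the 25 genes (80%), against 51.9% of all genes, and in 67.6% of the windows, against 49.5% of all windows. The letters TCACNCCAC, a form of the sterol regulatory element, were found in 1 of the 25 genes (4%), against 1.44% of all genes, and in 2.94% of the windows, against 1.24% of all windows. That match lies 137 bases before a start of Hmgcs1, and is printed with 10 bases on each side and the match in capitals. The whole printed stretch is chr13:119690204-119690232 on the plus strand. The match was chosen for print after it was seen.
Hmgcs1: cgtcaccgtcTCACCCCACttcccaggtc

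The 19 measured genes with CCAAT had a median ratio of 0.911, and the 3 without had 1.003. The 17 measured genes with CCNCNCCC had a median ratio of 0.911, and the 5 without had 0.985. No test was made, the windows were not matched on base composition, and a match is a description of these letters only.

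Across the pathway the differences were small, with a median ratio of 0.964 over the 27 measured genes, against 0.996 over all 10850 measured genes. None of the 27 was 2-fold or more higher or lower in Klf2, where 2.45% of all measured genes reached 2-fold upward and 5.67% downward. At 1.5-fold, 1 gene was higher (Idi1), beside 10.2% of all genes, and 3 were lower (Insig1, Abcg1 and Mylip), beside 13.9% of all genes. Idi1 did not reach 1.5-fold when scaled by total exon reads (1.42), in RPKM (1.42) or when centred on genes of like mean CPM (1.35). The interval of the ratio lay above 1 for 7 genes and below 1 for 12, beside 37.1% and 37.3% of all genes. These counts are close to or under the background at 1.5-fold. The summed CPM of the 27 genes and the 3 near 0 was 2967 in Klf2 and 3093 in BFP.

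**Figure D1:**
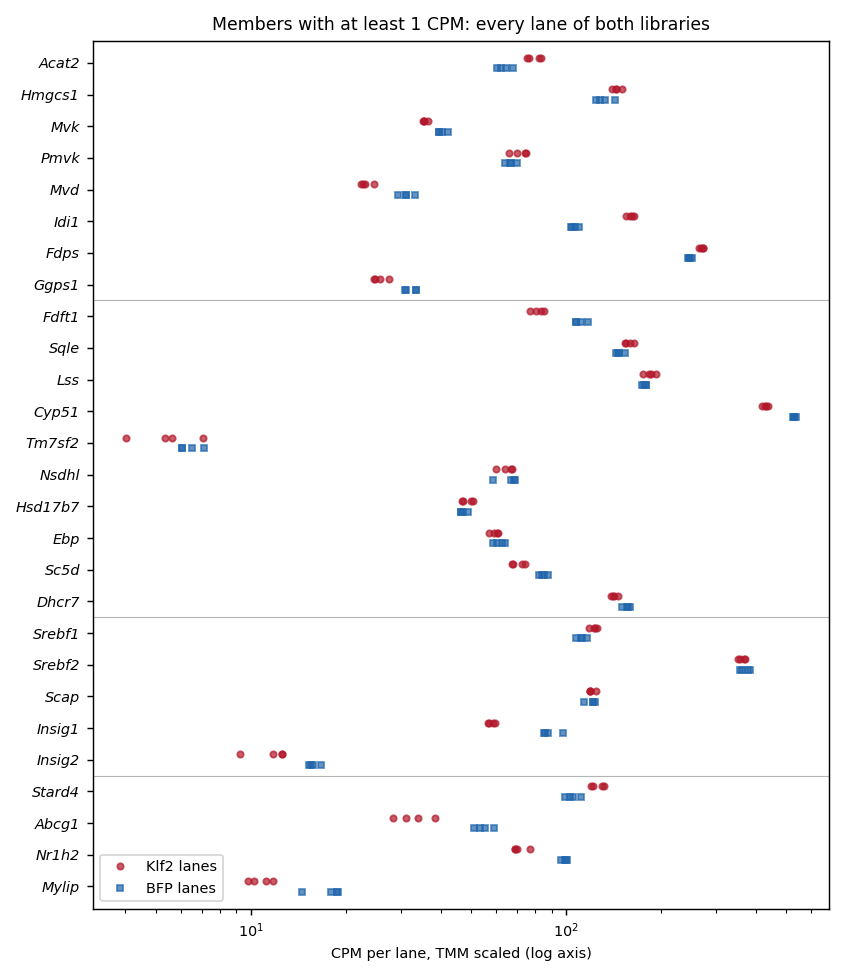
CPM of each measured gene in the 4 lanes of the Klf2 library (circles) and the 4 lanes of the BFP library (squares), on a log axis, with genes ordered along the pathway and lines between the 4 steps. Lanes of the libraries lie apart for Idi1, Cyp51 and Insig1 and overlap for Lss, Srebf2 and Scap.

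Of the 8 enzymes of the mevalonate and isoprenoid step, 5 were higher in Klf2 and 3 lower. The step summed to 809 CPM in Klf2, against 720.1 CPM in BFP. Its median log2 difference, from log2(CPM + 1), was 0.10, against -0.01 over all genes, but -0.042 when each gene was centred on genes of like mean CPM, where Hmgcs1 and Fdps lay below 1. The interval lay above 1 for Acat2, Hmgcs1, Idi1 and Fdps, and below 1 for Mvk, Mvd and Ggps1. Over all genes, 37.1% of intervals lay above 1 and 37.3% below. In the bin of highest mean CPM, which holds Hmgcs1, Idi1 and Fdps, 61.5% lay above 1. Ratios of the 8 enzymes ranged from 0.743 to 1.52.

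Idi1 (chr13:8885501-8892451, mm10), the isopentenyl diphosphate isomerase that makes dimethylallyl diphosphate, was at 163, 160.0, 165 and 156 CPM in the 4 Klf2 lanes, against 109.6, 104, 107 and 104 CPM in the 4 BFP lanes. Every Klf2 lane was above every BFP lane, and the ratio of 1.52 (1.45 to 1.58) was the highest of the 27, at percentile 90.1 of all measured genes. When all measured genes were split into 5 equal bins by mean CPM, 14.01% of the genes in the top bin, which holds Idi1, were at least 1.5-fold higher. Of its reads, 63.4% were uniquely placed, and the ratio on those was 1.51.

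Acat2, the cytosolic acetyl-CoA acetyltransferase at the head of the pathway, was at 76.1, 75.0, 82.3 and 83.3 CPM in the Klf2 lanes, against 62.1, 60.3, 64.5 and 68.1 CPM in the BFP lanes. The lanes did not overlap, and the ratio was 1.24 (1.17 to 1.32), or 1.29 on uniquely placed reads, which made up 56.4%. Fdps, the farnesyl diphosphate synthase, was at 269 CPM in Klf2 and 247 CPM in BFP, a ratio of 1.09 (1.06 to 1.12), with 40.5% of reads uniquely placed. Hmgcs1, the HMG-CoA synthase, was at 145 CPM in Klf2 and 132 CPM in BFP, also a ratio of 1.09 (1.05 to 1.14), but its lanes overlapped between the libraries.

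The enzymes that turn mevalonate into isopentenyl diphosphate lay on both sides of 1. Mvd, the decarboxylase that yields isopentenyl diphosphate, was at 22.7, 23.1, 22.3 and 24.5 CPM in the Klf2 lanes, against 33.2, 31.2, 31.1 and 29.2 CPM in the BFP lanes. All Klf2 lanes were lower, and the ratio was 0.743 (0.673 to 0.820). Mvk, the mevalonate kinase, was at 35.7 CPM in Klf2 and 40.5 CPM in BFP, a ratio of 0.882 (0.812 to 0.957), and its lanes were also apart. Pmvk, the phosphomevalonate kinase between these 2 enzymes, was at 71.1 CPM in Klf2 and 66.9 CPM in BFP, with overlapping lanes and an interval that reached 1. Ggps1, which extends farnesyl to geranylgeranyl diphosphate, was at 25.6 CPM in Klf2 and 32.2 CPM in BFP, a ratio of 0.795 (0.723 to 0.875), with lanes apart.

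Of the 10 enzymes from squalene to cholesterol, 3 had a ratio above 1 and 7 below. They summed to 1243 CPM in Klf2, against 1388 CPM in BFP, with a median log2 difference of -0.09, or -0.11 when centred on genes of like mean CPM, where the mevalonate step was also below 0. The interval lay below 1 for Fdft1, Cyp51, Sc5d and Dhcr7, above 1 for Sqle, and included 1 for Lss, Tm7sf2, Nsdhl, Hsd17b7 and Ebp, so that the 4 of 10 below 1 stand near the 37.3% of all genes. Whether the 2 steps differ was not tested, since each rests on the same pair of libraries.

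Fdft1, the squalene synthase that commits farnesyl diphosphate to sterols, was at 83.2, 77.0, 85.4 and 80.5 CPM in the Klf2 lanes, against 117, 111, 107 and 107 CPM in the BFP lanes. All Klf2 lanes were lower, with a ratio of 0.736 (0.698 to 0.775), the lowest of the 18 synthesis enzymes. Cyp51, the lanosterol 14-alpha demethylase and the most abundant of the 30 genes by CPM, was at 431, 419.5, 427 and 437 CPM in the Klf2 lanes, against 536, 529, 525 and 529.7 CPM in the BFP lanes. These lanes were also apart, and the ratio was 0.808 (0.790 to 0.827). Exons of Fdft1 and Cyp51 overlap exons of Ctsb and Akap9 on the other strand, and the use of strand in counting is not given in the sources used here. Exons of Hmgcs1, Idi1, Ggps1, Lss and Srebf1 also overlap another transcript on the other strand. Those of Fdps, Tm7sf2 and Srebf1 overlap one on the same strand. Among genes of other lists named below, Elovl6, Acss2, Pdss1, Pltp and Npc1 have such overlaps on the other strand, and Rabggtb on the same strand.

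Sc5d, the sterol C5-desaturase, was at 70.6 CPM in Klf2 and 84.8 CPM in BFP, a ratio of 0.833 (0.786 to 0.882). Dhcr7, which makes the last reduction to cholesterol in the Kandutsch-Russell branch, was at 142 CPM in Klf2 and 156 CPM in BFP, a ratio of 0.911 (0.874 to 0.949). Lanes were apart for both. Sqle, the squalene epoxidase and a rate-limiting enzyme, was at 154, 159, 164 and 155 CPM in the Klf2 lanes, against 147, 144, 148 and 154 CPM in the BFP lanes, a ratio of 1.07 (1.02 to 1.11). The lowest Klf2 lane and the highest BFP lane of Sqle were nearly level.

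The other enzymes of this step had overlapping lanes. Lss, the lanosterol synthase, had a ratio of 1.04 (0.999 to 1.08), with 35.6% of its reads uniquely placed. Nsdhl and Hsd17b7, of the C4 demethylation of sterols, had ratios of 0.985 (0.925 to 1.05) and 1.03 (0.956 to 1.11). Ebp, the sterol isomerase, had 0.964 (0.904 to 1.03), and Tm7sf2, a sterol C14-reductase, had 0.858 (0.694 to 1.06) at 5.52 CPM in Klf2 and 6.43 CPM in BFP. Over the 11 synthesis enzymes with at least 90% uniquely placed reads, 2 intervals lay above 1 and 5 below, beside 37.1% and 37.3% of all genes. Their median log2 difference was -0.05.

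Per exon length, the levels in RPKM (reads scaled to exon length and library size) were led by Fdps, at 178 RPKM in Klf2 and 174 RPKM in BFP, and Cyp51, at 82.2 RPKM in Klf2 and 108 RPKM in BFP. Tm7sf2 was the lowest of the synthesis enzymes, at 1.30 RPKM in Klf2 and 1.61 RPKM in BFP. RPKM used the total gene reads of a lane, without TMM.

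**Figure D2:**
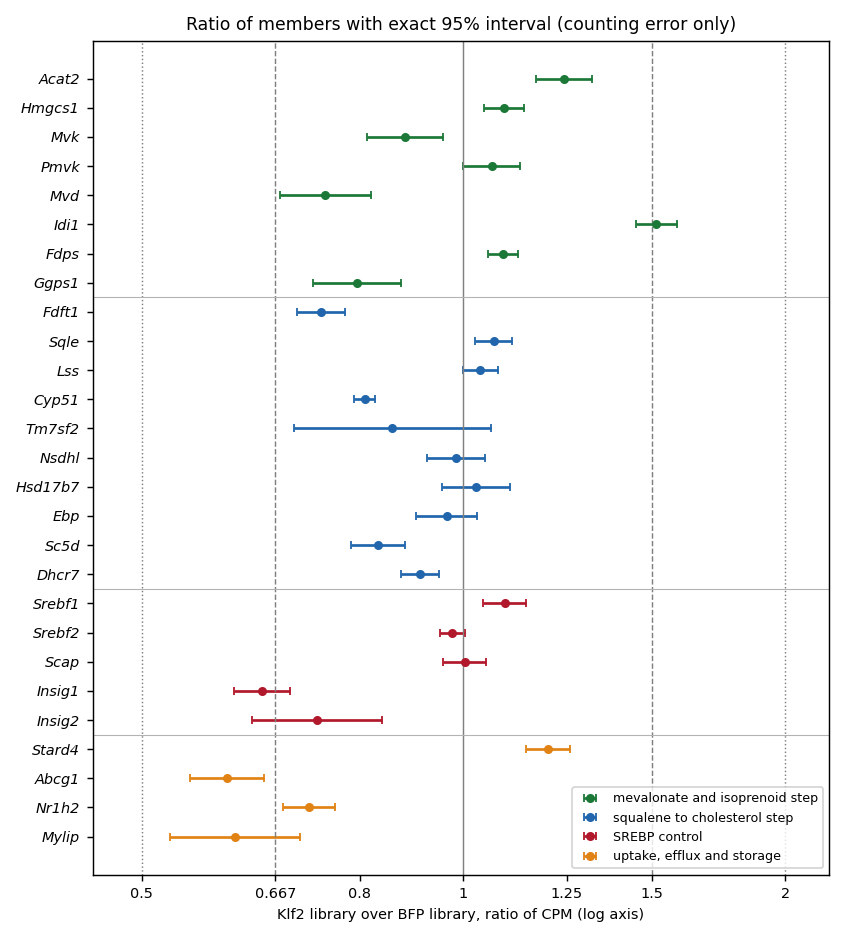
Ratio of CPM, Klf2 over BFP, on a log axis for the 27 measured genes, coloured by step, with exact 95% intervals for counting error. Dashed lines mark 1.5-fold and dotted lines 2-fold in either direction: Idi1 is furthest to the right at 1.52 and Abcg1 furthest to the left at 0.601.

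In the SREBP machinery, the INSIG genes were lower in Klf2, while Srebf1, Srebf2 and Scap had ratios from 0.977 to 1.09. Insig1 (chr5:28071363-28078662, mm10), a SREBP target whose protein retains SCAP in the endoplasmic reticulum, was at 58.6, 59.5, 56.8 and 56.5 CPM in the Klf2 lanes, against 84.9, 87.8, 98.1 and 85.9 CPM in the BFP lanes. All Klf2 lanes were lower, with a ratio of 0.649 (0.610 to 0.689). In its bin of mean CPM, 6.54% of genes were at least 1.5-fold lower. Without the third lane of each library the ratio of Insig1 was 0.675, which does not reach 1.5-fold.

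Insig2, its paralogue with the same retention role, was at 11.8, 12.6, 9.27 and 12.5 CPM in the Klf2 lanes, against 16.7, 15.3, 15.7 and 15.6 CPM in the BFP lanes. The lanes did not overlap, and the ratio was 0.730 (0.634 to 0.839). Insig1 was the more abundant of the pair per exon length, at 17.6 RPKM in Klf2 and 28.9 RPKM in BFP, against 2.73 RPKM in Klf2 and 3.99 RPKM in BFP for Insig2.

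Srebf2, which encodes the SREBP that chiefly drives cholesterol synthesis, was at 351, 369.9, 367 and 356 CPM in the Klf2 lanes, against 357, 361, 382 and 378 CPM in the BFP lanes. The lanes overlapped, and the ratio was 0.977 (0.951 to 1.003). Srebf1, which encodes the SREBP that chiefly drives fatty acid synthesis and is itself an LXR target, was at 123 CPM in Klf2 and 112 CPM in BFP, a ratio of 1.09 (1.04 to 1.15), with lanes apart. Scap was at 121 CPM in Klf2 and 120.3 CPM in BFP, a ratio of 1.003 (0.958 to 1.05). SREBP activity is set by proteolysis, which these RNA counts do not measure.

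Among genes of uptake, efflux and storage, the 3 measured genes of the LXR axis were lower in Klf2 and the sterol carrier Stard4 was higher. Srebf1, the LXR target in the SREBP machinery, was not lower, at 1.09 (1.04 to 1.15), or 0.973 when centred on genes of like mean CPM. Abcg1 (chr17:31057698-31115777, mm10), a cholesterol efflux transporter and LXR target, was at 31.0, 38.4, 28.2 and 33.9 CPM in the Klf2 lanes, against 53.2, 51.0, 59.2 and 55.3 CPM in the BFP lanes. The lanes were apart, and the ratio of 0.601 (0.555 to 0.651) was the lowest of the 27, at percentile 9.82 of all measured genes. Mylip (chr13:45389742-45412019, mm10), an LXR-induced ubiquitin ligase that limits sterol uptake, was at 11.8, 9.79, 10.2 and 11.2 CPM in the Klf2 lanes, against 14.6, 18.8, 17.9 and 18.9 CPM in the BFP lanes. All Klf2 lanes of Mylip were lower, with a ratio of 0.612 (0.531 to 0.703), or 0.669, short of 1.5-fold, when centred on genes of like mean CPM. At least 1.5-fold lower levels were found in 10.6% of genes in the bin that holds Abcg1 and in 18.2% in the bin that holds Mylip.

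Nr1h2, which encodes LXR beta, was at 68.7, 77.0, 69.8 and 68.9 CPM in the Klf2 lanes, against 99.0, 100.1, 101 and 96.7 CPM in the BFP lanes. All Klf2 lanes were lower, with a ratio of 0.718 (0.679 to 0.759). Nr1h3, which encodes LXR alpha, had 8 reads in Klf2 and 15 reads in BFP, so Nr1h2 carried nearly all LXR transcript reads in both libraries. Abca1, the other main efflux transporter, had 2 reads in Klf2 and 5 reads in BFP. Soat1, an enzyme that esterifies cholesterol for storage, had 4 reads in each library, so no difference could be detected at this depth for any of these 3 genes. Stard4, which carries sterols between membranes and is a SREBP2 target, was at 132, 122, 120.1 and 130.4 CPM in the Klf2 lanes, against 112, 103, 99.3 and 105 CPM in the BFP lanes. Its lanes were apart, with a ratio of 1.201 (1.15 to 1.26).

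Reads inside genes but outside exons, which come mostly from introns of unspliced RNA where no other transcript lies, gave a second readout for the 24 genes with at least 100 such reads over both libraries. Their median ratio was 0.851 on reads outside exons, against 0.981 on exon reads. Over all 8383 genes with that many reads, the medians were 1.01 outside exons and 1.02 on exon reads. The interval outside exons lay below 1 for 12 of the 24 genes, beside 28.5% of all such genes, and above 1 for 1 gene, Scap, beside 31.8%. In 8 of the 24 genes the ratio outside exons was below the exon ratio with intervals apart, beside 19.4% of all such genes, and in 3 it was above, beside 17.4%.

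Those 8 genes were Hmgcs1, Fdps, Fdft1, Sqle, Cyp51, Hsd17b7, Sc5d and Insig1. Insig1 had 486 reads outside exons in Klf2, against 1074 in BFP, a ratio of 0.471 (0.422 to 0.525), beside 0.649 on exon reads. Fdft1 had 324 such reads in Klf2 and 707 in BFP, a ratio of 0.477 (0.417 to 0.545), beside 0.736 on exon reads. Cyp51 had 335 in Klf2 and 616 in BFP, a ratio of 0.566 (0.494 to 0.648), beside 0.808 on exon reads. The reads outside exons thus lay on the same side of 1 as the exon reads for these 3 genes, and further from it. Sc5d likewise had 299 in Klf2 and 510 in BFP, a ratio of 0.610 (0.527 to 0.705). Hsd17b7, level on exon reads, had 69 in Klf2 and 135 in BFP, a ratio of 0.532 (0.392 to 0.716).

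Sqle, Hmgcs1 and Fdps were on opposite sides of 1 in the readouts. Sqle had 153 reads outside exons in Klf2 and 204 in BFP, a ratio of 0.780 (0.629 to 0.967). Hmgcs1 had 83 in Klf2 and 119 in BFP, a ratio of 0.726 (0.542 to 0.969). Fdps had 376 in Klf2 and 450 in BFP, a ratio of 0.869 (0.756 to 0.999). In all, 15 of the 24 genes lay on the same side of 1 in both readouts.

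The 3 genes with the higher ratio outside exons were Scap, Abcg1 and Mylip. Scap had 622 such reads in Klf2 and 431 in BFP, a ratio of 1.502 (1.33 to 1.70), beside 1.003 on exon reads. Exons of Scap overlap a transcript on the other strand, 5830462I19Rik. Abcg1 had 301 in Klf2 and 371 in BFP, a ratio of 0.844 (0.723 to 0.986). Mylip had 275 in Klf2 and 337 in BFP, a ratio of 0.849 (0.721 to 0.999). Both stayed below 1 but nearer to it than on exon reads. Idi1 had 99 in Klf2 and 90 in BFP, with an interval of 0.852 to 1.54 that included both 1 and its exon ratio.

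**Figure D3:**
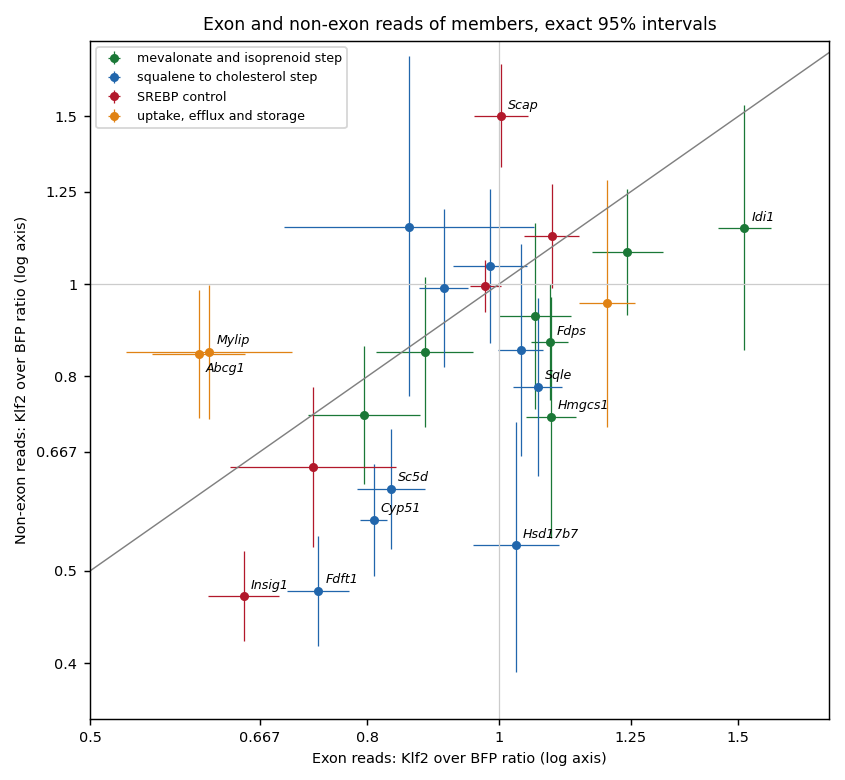
Ratio of Klf2 over BFP on exon reads (horizontal, log axis) against the ratio on reads outside exons (vertical, log axis) for 24 genes, coloured by step, with exact 95% intervals and a line of equal ratios. The 8 labelled genes under the line, from Insig1 to Fdps, have lower ratios outside exons, and Scap, Abcg1 and Mylip lie above it, while Idi1 is labelled for its exon ratio.

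Reads across exon junctions count spliced RNA. Idi1 had 458 junction reads in Klf2 and 302 in BFP, a ratio of 1.58 (1.36 to 1.83), and Stard4 had 327 in Klf2 and 220 in BFP, a ratio of 1.55 (1.30 to 1.84). Insig1 had 62 in Klf2 and 135 in BFP, a ratio of 0.478 (0.348 to 0.650). These 3 were on the same side of 1 as on all exon reads, while Hmgcs1 (0.995), Lss (0.990), Scap (0.968) and Tm7sf2 (1.14) were on the other side, each with an interval that included 1. The junction interval of Stard4 lay above its exon interval, and on reads outside exons its ratio was 0.955 (0.708 to 1.29). Abcg1 had 185 junction reads in Klf2 and 241 in BFP, a ratio of 0.799 (0.656 to 0.971). This interval also lay above the exon interval of Abcg1. Mylip had a junction ratio of 0.768, with an interval that included both 1 and its exon ratio. On junction reads Abcg1 and Mylip were thus below 1 but short of 1.5-fold.

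Low and high expression did not have the same centre. The median log2 ratio of all genes in the 5 bins was -0.20 at the lowest mean CPM, then -0.13, -0.03 and 0.06, and 0.17 at the highest. The 5 bins held 1, 2, 5, 8 and 11 of the 27 genes, from low to high. Against the median of its own bin, Idi1 had a ratio of 1.35 and Stard4 of 1.07, while Abcg1 had 0.614, Insig1 0.623 and Mylip 0.669, so that Idi1 and Mylip no longer reached 1.5-fold. On that centring Hmgcs1, Fdps, Sqle, Lss, Srebf1 and Scap lay below 1.

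**Figure D4:**
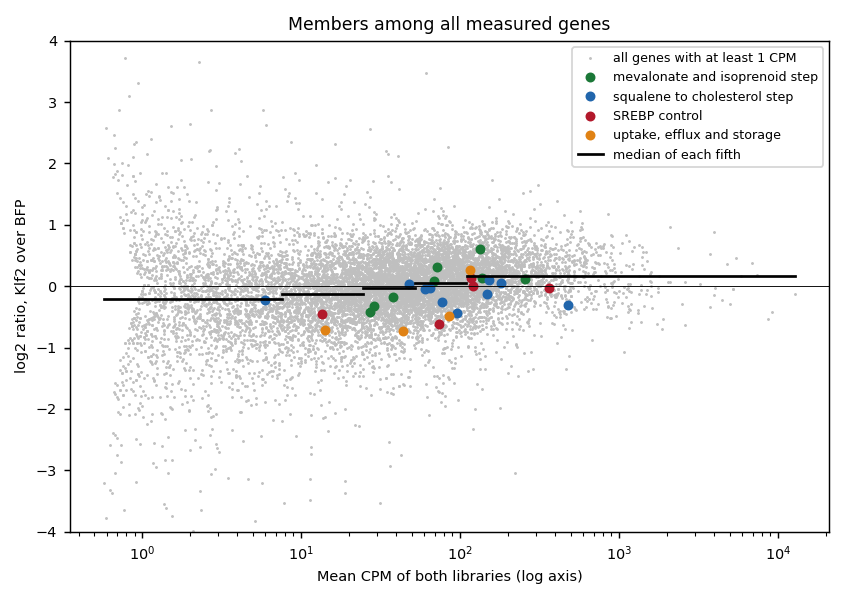
Log2 ratio of CPM, Klf2 over BFP, against the mean CPM of both libraries (log axis) for all measured genes (grey, with 3 genes beyond the vertical axis) and the pathway genes coloured by step. Bars mark the median of each of 5 equal bins of genes, from -0.20 at the lowest mean CPM to 0.17 at the highest.

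The 3 other sterol genes furthest below 1 act in storage, SREBP restraint and transport. Of 25 other genes of sterol metabolism, 22 were measured, 13 with an interval below 1, beside 37.3% of all genes, and 4 above, beside 37.1%. Past 1.5-fold there were 1 higher, beside 10.2% of all genes, and 3 lower, a share near the 13.9% of all genes. Soat2, the second cholesterol esterifying enzyme, was at 20.2 CPM in Klf2 and 62.2 CPM in BFP, a ratio of 0.325 (0.296 to 0.356), and 0.290 on reads outside exons (623 in Klf2 and 2234 in BFP). Erlin1, an endoplasmic reticulum protein that binds cholesterol and restrains SREBP activation, was at 51.2 CPM in Klf2 and 108 CPM in BFP, a ratio of 0.472 (0.444 to 0.502). Npc1, which exports cholesterol from lysosomes, was at 40.1 CPM in Klf2 and 75.1 CPM in BFP, a ratio of 0.533 (0.497 to 0.572). Acat1, a mitochondrial acetyl-CoA acetyltransferase, was at 182 CPM in Klf2 and 121 CPM in BFP, a ratio of 1.5035 (1.44 to 1.57). Soat2 was thus the measured sterol esterifying enzyme of these cells, since Soat1 had 4 reads in each library.

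Of 12 further genes listed as LXR targets, or as receptors that pair with or resemble LXRs, 8 were measured. Of these, 6 had an interval below 1, beside 37.3% of all genes, and 1 above (ratio 1.21), beside 37.1%. At least 1.5-fold lower were 4, beside 13.9% of all genes, and 18.2% and 29.0% in the 2 bins of lowest mean CPM, which hold Arl4c, Pltp and Rxra. Pltp, the phospholipid transfer protein, was at 5.25 CPM in Klf2 and 17.6 CPM in BFP, a ratio of 0.298 (0.248 to 0.357). Abca7, a lipid transporter whose control by LXRs was not tested, was at 64.0 CPM in Klf2 and 100.02 CPM in BFP, a ratio of 0.640 (0.604 to 0.677). Arl4c, a small GTPase, was at 15.0 CPM in Klf2 and 23.6 CPM in BFP, a ratio of 0.634 (0.563 to 0.714). Rxra, which encodes a partner receptor of LXRs, had 10 reads in Klf2 and 37 in BFP. The median log2 difference of the 8 was -0.46, beside -0.57 for the 4 measured genes of uptake, efflux and storage.

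Of 16 lipogenic targets of SREBP1, 13 were measured, 7 with an interval above 1, beside 37.1% of all genes and 61.5% in the top bin of mean CPM, and 4 below, beside 37.3% of all genes. Their median log2 difference was 0.06. Elovl6, which elongates palmitate, was at 257 CPM in Klf2 and 95.9 CPM in BFP, a ratio of 2.68 (2.57 to 2.80). Acaca, the acetyl-CoA carboxylase, was at 202 CPM in Klf2 and 145 CPM in BFP, a ratio of 1.39 (1.34 to 1.45). Acss2, the cytosolic acetyl-CoA synthetase, was at 2.44 CPM in Klf2 and 4.18 CPM in BFP, a ratio of 0.584 (0.433 to 0.784). Mid1ip1, which promotes polymerisation of acetyl-CoA carboxylase, was at 85.8 CPM in Klf2 and 108 CPM in BFP, a ratio of 0.792 (0.752 to 0.834), with 58.5% of reads uniquely placed. Outside exons Mid1ip1 was on the other side of 1, at 1.55 (1.19 to 2.01), and its exons overlap those of Gm14493 on the other strand. The ratios outside exons of Elovl6, Acaca and Acss2 were 3.63, 2.11 and 0.554, on the same side as their exon ratios.

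Of 15 genes of DNA replication, 14 were at least 1.5-fold higher in Klf2, beside 10.2% of all genes and 14.01% in the top bin of mean CPM, and Cdt1 was at 0.932. The median log2 difference of the list was 0.72. Their summed level was 5591 CPM in Klf2 and 3283 CPM in BFP. The part of proliferation in the sterol gene values was not tested.

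**Figure D5:**
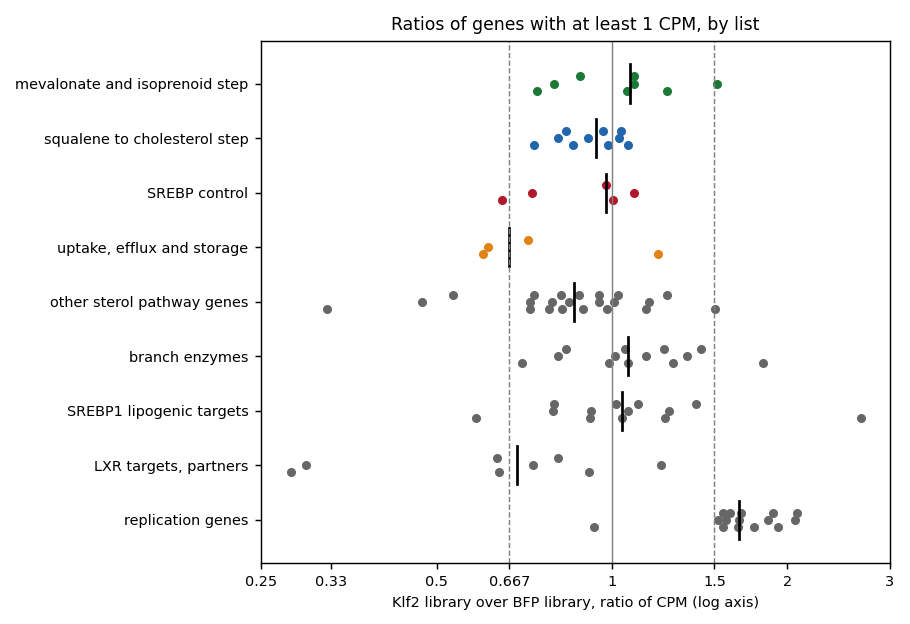
Ratio of CPM, Klf2 over BFP, on a log axis for the measured genes of each list, with a bar at the list's median and dashed lines at 1.5-fold in either direction. The mevalonate step has a median above 1 (below 1 when centred on genes of like mean CPM), the genes of uptake, efflux and storage and the further LXR genes have medians below 1, and 14 of the 15 replication genes lie past 1.5-fold.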

How the data were processed

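Per the labels' protocols, poly(A) RNA of infected cells was read on a HiSeq system. They list 2 library kits but not the kit of each library, so a kit difference and the groups cannot be told apart. CASAVA 1.8.2 and the build mm10 are listed, per the submitters' processing notes. For the aligner, the counter and strand use the entry is: not given in the sources used here. The authors deposited counts per lane of exon reads, uniquely placed exon reads, gene reads and junction reads, and other columns such as gene positions, per the file headers. RPKM was recomputed from these counts.

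Lanes were summed when their chi-square per degree of freedom, over genes with at least 20 reads, was under 1.5. CPM used TMM factors from edgeR 4.0.16 in R 4.3.3 (0.969 for Klf2 and 1.03 for BFP). Measured genes had at least 1 CPM in either library. Reads outside exons are gene reads minus exon reads. Of exon reads, 83.3% in Klf2 and 83.2% in BFP were uniquely placed, and genes under 90% are uncertain where a copy shares their sequence. Reads have no molecular identifiers. The ratio and interval steps were tested on simulated data.

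The 30 genes and the other lists were chosen with earlier results of these data known. All 30 may be named, and of each other list the 4 genes with the largest log2 difference. Promoters are from RefSeq.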

Additional observations from a re-analysis of the deposited data

How the results depend on the processing

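Under every alternative run, 18 of 27 genes stayed on 1 side of a ratio of 1. The 9 that crossed 1 were Hmgcs1, Fdps, Sqle and Srebf1 (centred on the median of their bin of mean CPM), Pmvk and Hsd17b7 (total exon reads and RPKM), Lss (all 3 of these), Nsdhl (without the first lane) and Scap. With total exon reads as library size, no gene (0) passed 1.5-fold upward, 3 intervals lay above 1 and 17 below. The share of all genes with such intervals is not given for this setting, so these counts have no background. The median log2 difference was then -0.14 for all 27 genes, beside -0.09 over all measured genes. It was 0.015 for the mevalonate step, -0.18 for the squalene step and -0.12 for SREBP control. TMM differs from total reads by 0.09 on the log2 scale, which sets this shift. Centred on these bins, 0 genes passed 1.5-fold upward and 2 downward (without Mylip), and 3 intervals lay above 1 and 17 below. For this setting, too, the share of all genes with such intervals is not given. The medians were then -0.15 for all 27 genes, -0.042 for the mevalonate step and -0.20 for SREBP control, beside 0 over all measured genes. With recomputed RPKM, chosen after seeing the files in place of the planned deposited RPKM, 0 genes passed 1.5-fold upward, the medians were -0.14 for all, 0.017 for the mevalonate step and -0.12 for SREBP control, and 129 of all genes were at least 2-fold higher. Without a floor, 432 of all genes were at least 2-fold higher and the median of uptake, efflux and storage was -0.23, since more low genes enter. With a floor of 10 CPM, 121 of all genes were at least 2-fold higher and 277 lower, since fewer enter. DESeq2 1.42.0 size factors, uniquely placed reads and a pseudocount of 0.1 CPM left these results within the same limits.

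Leaving out each lane in turn gave 267 to 281 genes at least 2-fold higher and 632 to 654 lower. The medians ran from -0.09 to -0.05 for the 27 genes, 0.08 to 0.12 for the mevalonate step, -0.12 to -0.06 for the squalene step, -0.06 to -0.02 for SREBP control and -0.58 to -0.54 for uptake, efflux and storage. At least 1.5-fold lower were 2 to 3 genes. No paired analysis was possible because the lanes of a group count as 1 sample and no test was made. With 1 library per group, differences between cultures, infections or preparations cannot be told apart from Klf2.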

Other observations

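Enzymes of branches from farnesyl and geranylgeranyl diphosphate to products other than sterols, with enzymes that process prenylated proteins, were all measured (13 of 13). Their summed level was 806 CPM in Klf2 and 709 CPM in BFP, with a median log2 difference of 0.09. The interval lay above 1 for 6, beside 37.1% of all genes, and below 1 for 3, beside 37.3%. At least 1.5-fold higher was 1, a share under the 10.2% of all genes. Pdss1, a subunit of the synthase of the ubiquinone side chain, was at 25.2 CPM in Klf2 and 13.9 CPM in BFP, a ratio of 1.82 (1.61 to 2.05). Nus1, a subunit of the synthase of dolichol precursors, was at 184 CPM in Klf2 and 137 CPM in BFP, a ratio of 1.34 (1.29 to 1.40). The subunits of the enzyme that prenylates Rab GTPases lay on opposite sides of 1. Rabggtb, the beta subunit, was at 85.1 CPM in Klf2 and 59.9 CPM in BFP, a ratio of 1.42 (1.34 to 1.51). Rabggta, the alpha subunit, was at 18.04 CPM in Klf2 and 25.8 CPM in BFP, a ratio of 0.7002 (0.627 to 0.782).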
